A study of Mus musculus with 11 samples.

Results

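The regions described here are 246 places in the mouse genome where the transcription factor IRF4 was called on day 3 of B cell culture, with no IRF4 peak of day 1 and no PU.1 peak of either day close by in the authors' lists for each factor and day. They were selected by measured values. From the 1964 lines of the authors' IRF4 list of day 3, those were kept whose peak position had no position of the IRF4 day 1 list, the PU.1 day 1 list or the PU.1 day 3 list less than 200 bp away. The calls and enrichments that made this choice are therefore given as a description and without a test. Such a list for a factor and day is called a group list here, and a library is 1 sequenced chromatin immunoprecipitation, replicate by replicate.

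All samples came from spleens of B1-8i mice, whose B cells carry a gene-targeted receptor for the hapten NP, on the 129 background. Purified B cells were kept at 0.5 M cells per mL with CD40L, NP-Ficoll (0.01 ng/mL) and with IL-5, IL-4 and IL-2 as cytokines, and chromatin was taken on day 1, when the cells were activated, or on day 3, after differentiation into plasma cells. Each day has 3 libraries for IRF4 and 2 for PU.1, and input DNA pooled from 2 preparations was the authors' background. All groups shared genotype, strain and stimulation, so the days differ in time in culture and in what the cells had become, and these cannot be told apart. The labels do not say whether replicates were separate animals or cultures, so a spread between libraries may be technical. The lists hold no expression values, so the plasma cell state of the day 3 cells was not checked by markers.

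IRF4 binds a GAAA core and binds poorly as a single molecule. It is known to bind the Ets-IRF composite element (EICE) beside PU.1 or the related factor SpiB, the AP-1-IRF composite element (AICE) beside BATF and a Jun protein, and, when IRF4 is abundant as in plasma cells, the interferon-stimulated response element (ISRE), in which a pair of GAAA cores stand next to each other. IRF4 is required for plasma cell formation, and PU.1 is an Ets factor of B cells and myeloid cells.

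The sequences that follow show the elements found at regions with high enrichment or next to a gene described further on. All were read from the NCBIM37 (mm9) reference genome, 5′ to 3′ on the strand given, as windows of 50 or 55 bases around a match. Capitals mark bases of an AICE in the Ctla4 and Acbd6 windows and of an ISRE (GAAANNGAAA) in all others. A match describes the letters and does not show that IRF4 touched them. The Ctla4 and Acbd6 windows hold the AICE form in which the IRF core lies apart from the AP-1 core. The Oxr1, Socs1 and Nfkbia windows hold the ISRE word found most often, Nub1 a word with a central GT, and Zbp1 a run of 3 GAAA cores. The Irf4 window lies upstream of the gene of the factor itself. The Trim30c window is a simple repeat in which the element recurs throughout the window.
Ctla4 (chr1:60970370-60970424, plus strand): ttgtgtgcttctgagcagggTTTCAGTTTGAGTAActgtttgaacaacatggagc
Acbd6 (chr1:157493953-157494007, plus strand): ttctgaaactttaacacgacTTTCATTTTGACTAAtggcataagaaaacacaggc
Oxr1 (chr15:41664083-41664132, plus strand): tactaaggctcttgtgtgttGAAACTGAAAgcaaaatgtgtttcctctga
Socs1 (chr16:10741343-10741392, minus strand): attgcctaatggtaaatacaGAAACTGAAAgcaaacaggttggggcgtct
Nfkbia (chr12:56588060-56588109, minus strand): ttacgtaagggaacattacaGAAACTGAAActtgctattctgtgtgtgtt
Ifi204 (chr1:175697182-175697231, minus strand): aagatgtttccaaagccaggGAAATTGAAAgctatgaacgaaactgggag
Nub1 (chr5:24192222-24192271, minus strand): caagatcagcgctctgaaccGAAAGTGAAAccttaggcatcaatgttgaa
Zbp1 (chr2:173044494-173044543, plus strand): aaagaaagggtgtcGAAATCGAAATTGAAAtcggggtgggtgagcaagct
Irf4 (chr13:30824745-30824794, plus strand): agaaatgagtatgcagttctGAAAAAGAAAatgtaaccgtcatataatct
Trim30c (chr7:111553200-111553249, plus strand): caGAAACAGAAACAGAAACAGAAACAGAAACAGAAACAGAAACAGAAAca
The Mnda region on the same chromosome as Ifi204 (chr1:175843185-175843234, minus strand) gave the same 50 bases as the Ifi204 window. Over their aligned windows, 160 of 168 bases of these 2 regions were identical (95.2%), so reads from one copy may have been counted at the other, and their separate values are uncertain.

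Calls were not spread evenly over the libraries. Replicates 1 to 3 of IRF4 on day 3 listed 2784, 1408 and 5595 peaks, and 210, 112 and 220 of the 246 regions were called in them. A total of 50 regions (20.3%) were called in all 3, against 40.5% of all lines of the day 3 group list, and the other 196 in 2. Of these pairs, 134 were replicates 1 and 3, 36 replicates 2 and 3, and 26 replicates 1 and 2. Replicate 2, the library with the fewest peaks, was thus the one that most often lacked a call.

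Many of these regions were not silent in single libraries outside day 3. In all, 125 regions (50.8%) had a peak less than 200 bp away in at least 1 IRF4 library of day 1, against 79.8% of all lines of the day 3 group list. Replicates 1 to 3 of day 1, with 825, 9326 and 8929 peaks, accounted for 2, 73 and 51 of these calls. The 2 calls of replicate 1 were upstream of Itgb1 and of Fndc3a. Only 1 region, 74.5 kb upstream of the integrin gene Itga4, was called in more than 1 of them, in replicates 2 and 3. Those 2 day 1 peaks lay 251 bp apart, on either side of the day 3 position. Since absence from the day 1 group list was part of the rule, the number of day 1 libraries per region is a description.

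Calls of PU.1 were fewer. At least 1 PU.1 library had a peak at 76 regions (30.9%), against 82.5% of all lines of the day 3 group list. The 2 libraries of day 1 were called at 17 and 19 regions and the 2 of day 3 at 32 and 34. A single PU.1 library was called at 50 regions and a pair, 1 of each day, at 26. Absence from both PU.1 group lists was part of the rule. The lower share and the number of PU.1 libraries per region are therefore a description. No IRF4 library of day 1 and no PU.1 library was called at 79 regions, and libraries of both kinds were called at 34. The strictest set, called in all 3 day 3 IRF4 libraries and nowhere else, held 17 regions. These joint counts were not set beside the same counts over all lines of the day 3 group list. They depend on the rule and are a description.

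**Figure D1:**
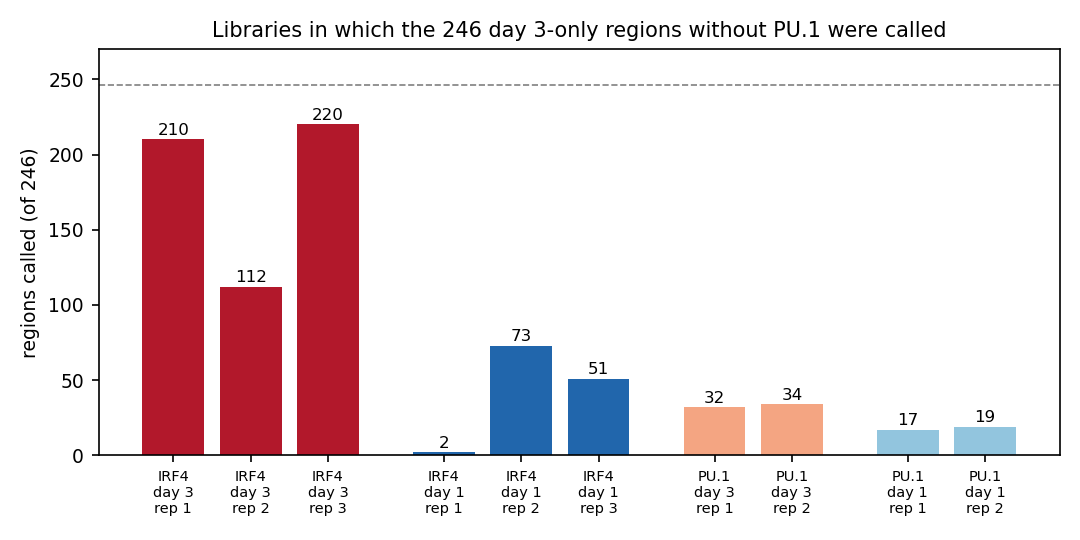
Number of the 246 regions called in each of the 10 libraries, as bars from 0, with the dashed line at 246. The IRF4 day 3 libraries called 112 to 220 regions, the IRF4 day 1 libraries 2 to 73 and the PU.1 libraries 17 to 34.

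The peak strength is given as the authors' fold enrichment over input, which ranks peaks within a library. Its scale was not adjusted between libraries here. Values of different libraries given side by side therefore do not show which signal was stronger. Counts above or below a set fold enrichment take the values as listed. In replicates 1, 2 and 3 of day 3 the called regions had lowest fold enrichments of 16.4, 16.9 and 15.2. The medians were 22.7, 21.0 and 28.3, and the highest values 64.8, 47.8 and 107. Ranked within all peaks of the library, the median region stood at the 45.3, 35.5 and 73.9 percentile, and 9, 3 and 33 regions were in the top 10 percent. The median region thus stood below the middle of replicates 1 and 2, in replicate 1 only a little. It stood above the middle of replicate 3, the library with the longest list. Every region was called in 2 or 3 of these libraries, and the percentiles of the whole group list were not set beside these.

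The lists of the 2 days end at different levels. The weakest peaks listed had a fold enrichment between 20.9 and 21.9 in the IRF4 libraries of day 1 and between 15 and 16.9 in those of day 3. In 33 regions every day 3 fold enrichment was below 20.9. The part of these cutoffs in a region counting as day 3-only was not tested.

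Where a single library of day 1 called a region, the fold enrichment could be well above the weakest peak of that library. In replicate 2 of day 1 the 73 called regions had fold enrichments from 20.9 to 111 with a median of 34.3, and in replicate 3 the 51 regions ran from 22.5 to 75.0 with a median of 34.5. A day 1 fold enrichment above 60 was seen at 12 regions. The highest was in an intron of the kinase gene Taok3, with 111 in replicate 2 of day 1 and with 34.6 and 34.2 in replicates 2 and 3 of day 3. The region 0.4 kb from the start of Slfn3, of the Schlafen family, had 91.2 in replicate 2 of day 1. Its day 3 values were 35.8, 26.3 and 72.4. An intron of Ets1, which encodes an Ets factor of lymphocytes, had 63.9 in replicate 3 of day 1 and values of 22.7 and 30.7 in replicates 1 and 2 of day 3.

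Pooled over the PU.1 libraries as listed, the 102 PU.1 calls had fold enrichments from 15.1 to 448, with a median of 26.8. Above 80 were 11 regions, and 4 of these had a PU.1 position of the group lists within 1 kb. The highest, 448 in replicate 2 of PU.1 on day 3, was at an exon of Plekhm3, where the nearest group-list PU.1 position was 622 bp away. An intron of Tnfsf18, the gene of a ligand of the TNF family, had 325 in replicate 1 of PU.1 on day 1 and 388 in replicate 2 of PU.1 on day 3, with a group-list position 486 bp away. Its IRF4 values on day 3 were 20.8 and 17.0 in replicates 1 and 3. The region upstream of Dynll2 had 344 in replicate 2 of PU.1 on day 1, and the nearest group-list PU.1 position lay 33732 bp away. The absence of PU.1 at these places is thus an absence from the group lists.

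The 200 bp rule cut through few pairs. At 4 regions, those nearest to Ahr, D16Ertd472e, Smchd1 and Ttc39c, the nearest excluding position was 200 to 250 bp away, and 11 other lines of the day 3 list were left out at 150 bp or more. Within 1 kb such a position was found for 52 regions, of PU.1 in 47, and the median distance was 5.06 kb.

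Sequence features took no part in the choice of the regions, so they were tested. Within 100 bp to either side of the peak position, on either strand, an ISRE (GAAANNGAAA) was found in 72 of 246 regions (29.3%). An AP-1 site (TGACTCA or TGAGTCA), the element of the Fos, Jun and BATF factors, was found in 66 (26.8%), the AICE in 18 (7.32%) and the EICE (GGAANNGAAA) in 11 (4.47%). In windows of the same length centred 2 kb to either side, the shares were 3.25%, 3.86%, 0 of 492 and 2.44%. Over all 1964 lines of the day 3 list they were 12.8%, 18.3%, 4.07% and 30.0%, in the same order. The AICE search covers a joined and a spaced form, and an AICE ending in the full AP-1 site counts as both. Of the 18 regions with an AICE, 13 also held an AP-1 site, which at Acbd6 and Dtl lay apart from the AICE.

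The share with an ISRE was the highest of the 4 kinds of IRF4 region compared. It was 29.3% against 13.5% of the 615 day 3-only regions with PU.1, a difference of 15.8 percentage points (95% interval 9.69 to 22.2, adjusted exact p = 5.55e-07). It was 10.5% in the 229 regions of both days without PU.1, a difference of 18.8 points (11.7 to 25.6, adjusted exact p = 1.004e-06). It was 7.96% in the 741 day 1-only regions without PU.1, a difference of 21.3 points (15.5 to 27.5, adjusted exact p = 1.20e-14). All are two-sided Fisher's exact tests with Benjamini-Hochberg adjustment over 15 comparisons. The day 3-only regions with PU.1 were separated from these by PU.1 calls. Differences from them in any element may therefore not be independent of the rule. The units are regions, which share libraries, so the intervals cover counting of regions and not the spread between cultures.

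The AP-1 site placed these regions between the other kinds. Its 26.8% was above the 8.78% of day 3-only regions with PU.1 by 18.05 points (12.3 to 24.2, adjusted exact p = 3.60e-10). It was below the 46.7% of regions of both days without PU.1, with a difference of -19.9 points (-28.2 to -11.3, adjusted exact p = 1.53e-05), and below the 37.7% of day 1-only regions without PU.1, with -10.8 points (-17.1 to -4.04, adjusted exact p = 0.00377). Both of these last calls were lost when the stronger 50% of each list alone was used, at -15.5 points (adjusted exact p = 0.0912) and -6.12 points (adjusted exact p = 0.466). The call against the day 1-only regions was also lost without replicate 3 of IRF4 on day 3 (-10.8 points, adjusted exact p = 0.0970), replicate 2 of day 1 (-13.2 points, adjusted exact p = 0.129) or replicate 3 of day 1 (-6.92 points, adjusted exact p = 0.574).

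The AICE share of 7.32% was above the 0.976% of day 3-only regions with PU.1 (6.34 points, 3.47 to 10.3, adjusted exact p = 5.80e-06). Against the 14.4% of regions of both days without PU.1 it was lower by a margin that passed the test as fitted (-7.09 points, -12.9 to -1.50, adjusted exact p = 0.0283) and did not pass under 4 other settings, among them a window of 50 bp (-4.88 points, adjusted exact p = 0.122), nor without any one of 6 single libraries. Against the 7.69% of day 1-only regions without PU.1 the difference was -0.375 points, with an interval from -3.78 to 3.93.

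EICE was scarce. The 4.47% was far below the 35.8% of day 3-only regions with PU.1, a difference of -31.3 points (-35.6 to -26.3, adjusted exact p = 7.42e-24). Since the EICE holds the GGAA core that PU.1 binds and these kinds of region were separated by PU.1 calls, this difference is not independent of the rule. Against the other kinds without PU.1 the EICE differences were 1.41 points (-2.27 to 5.12) and 1.91 points (-0.502 to 5.39), and neither passed the test (adjusted exact p = 0.551 and 0.186).

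**Figure D2:**
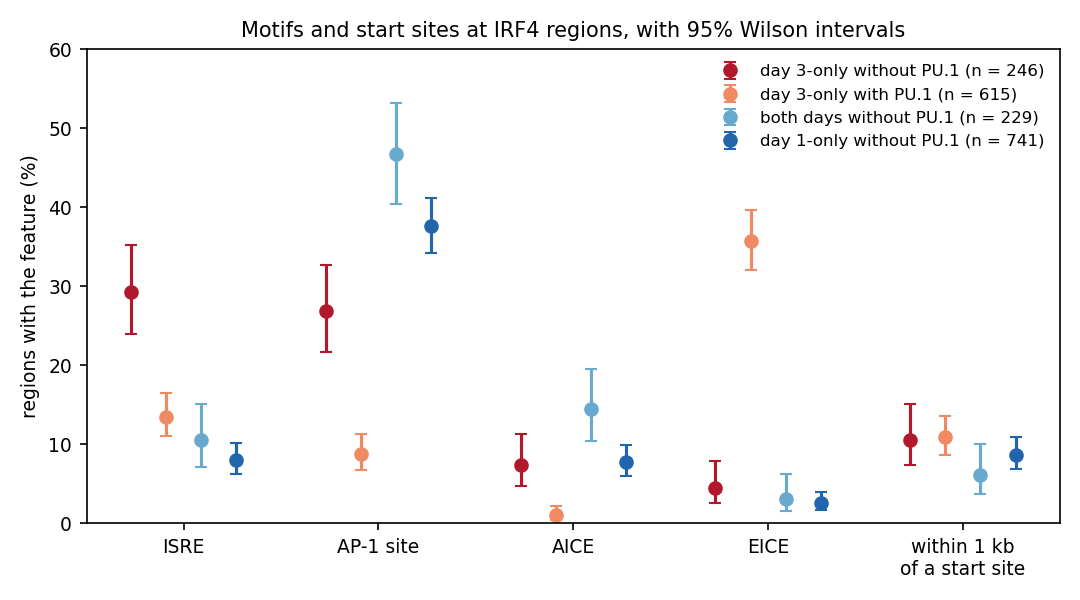
Share of regions with each feature, in percent, for the 246 day 3-only regions without PU.1 and the 3 other kinds of IRF4 region. Points are shares and bars 95% Wilson intervals. The ISRE share of 29.3% lies above 13.5%, 10.5% and 7.96%, and the EICE share of 35.8% is found in the day 3-only regions with PU.1.

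ISRE and AP-1 elements were largely in different regions. An ISRE without any of the 3 other elements was found in 64 regions, an AP-1 site or AICE without an ISRE in 66, and an ISRE together with an AP-1 site or AICE in 5. No region held both an ISRE and an AICE, and 3 held an ISRE and an EICE. In 103 regions (41.9%) none of the 4 elements was found. In strength, the median percentile of ISRE regions was 38.3, 39.7 and 77.7 in replicates 1 to 3 and that of regions with an AP-1 site or AICE 48.7, 37.7 and 73.9.

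The elements lay close to the peak. For the nearest match in each region, the median distance from the peak position was 26.5 bp for the ISRE, 13.5 bp for the AP-1 site and 9.5 bp for the AICE. Within 50 bp were 60 of 72 regions with an ISRE, 53 of 66 with an AP-1 site and 18 of 18 with an AICE. Of 126 ISRE matches, 42 were in 4 regions with more than 3 matches each. These were Trim30c with 21 and Mtap4 with 13, and Zbp1 and the region near Zfp36l2 with 4 each. Not counting the ISRE in such regions of any kind left the differences at 14.5, 17.2 and 19.7 points.

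**Figure D3:**
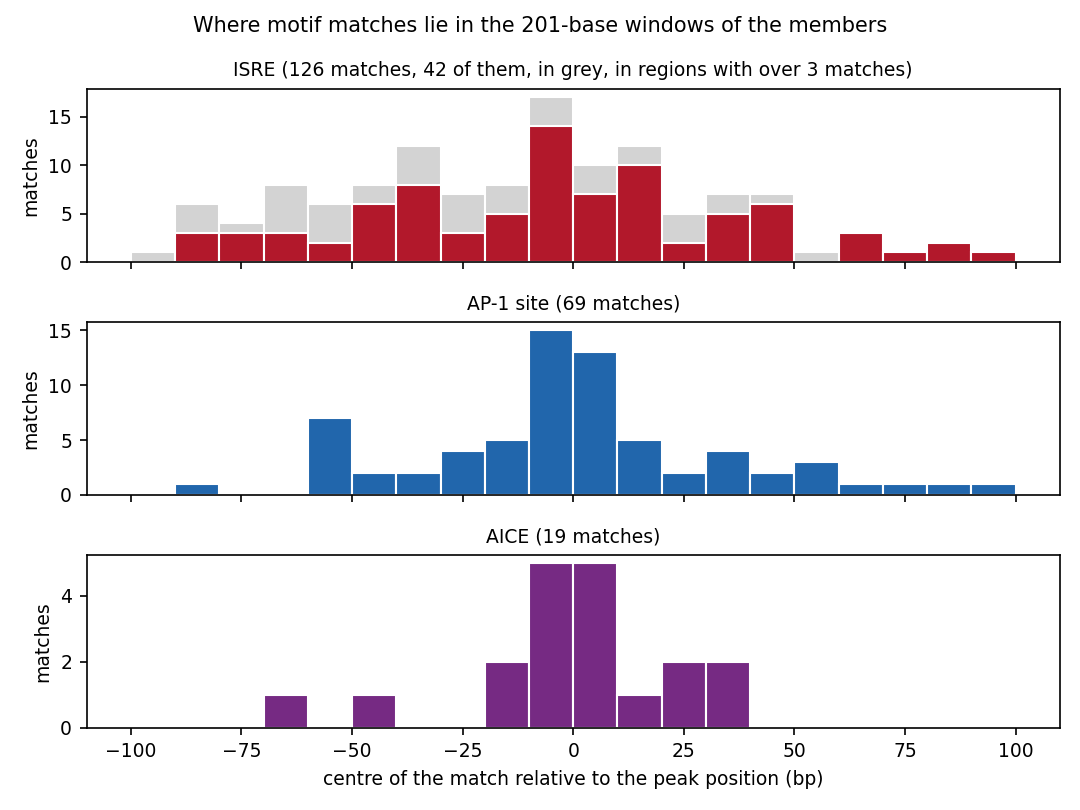
Number of matches by the distance of their centre from the peak position, in bins of 10 bp, for the ISRE, the AP-1 site and the AICE in the 246 regions. Grey parts of the ISRE bars are 42 matches in 4 regions with more than 3 matches. The median nearest match was 26.5, 13.5 and 9.5 bp from the peak.

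The bases between the GAAA cores were not evenly used. Leaving out the 4 regions with more than 3 matches, CT stood in the middle of 33 of 84 matches (39.3%), as in the Oxr1, Socs1 and Nfkbia windows, and GT in 13 (15.5%), as in the Nub1 window. The full word GAAACTGAAA was found in 30 of the 246 regions.

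The 2 classes took different shares of the regions with and without a day 1 call. Among the 121 regions called in no IRF4 library of day 1, 44 held an ISRE (36.4%) and 23 an AP-1 site or AICE (19.0%). Among the 125 regions with such a call, 28 held an ISRE (22.4%) and 48 an AP-1 site or AICE (38.4%). Of the 18 regions with an AICE, 12 were called in a library of day 1. The 79 regions with no call in any IRF4 day 1 or PU.1 library included 31 with an ISRE (39.2%). These divisions were made after the values were seen, and their differences were not tested.

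The share of peaks with an ISRE was also measured in each IRF4 library by itself, over its peaks with no PU.1 position of the group lists less than 200 bp away. This uses the libraries as samples and was chosen after the data were seen. On day 1 the shares were 7.05% of 156 peaks, 4.77% of 6556 and 4.29% of 6454, and on day 3 they were 15.02% of 912, 21.6% of 310 and 15.1% of 2756. The days did not overlap. The day 3 mean of 17.3% ± 3.77 (SD, n = 3) and the day 1 mean of 5.37% ± 1.47 (SD, n = 3) gave a difference of 11.9 points, with p = 0.1 in a two-sided exact permutation test, the smallest value that 3 against 3 libraries can give. With each library reduced to its 825 strongest peaks, the means were 19.7% ± 6.56 and 7.17% ± 1.83 (SD, n = 3 each, exact permutation p = 0.1).

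For the AP-1 site the order of the days differed between the full lists and the strongest peaks of each library. Such a cut changes list length and peak strength together, and these were not separated. Day 1 libraries had 45.5%, 15.8% and 15.2% and day 3 libraries 36.3%, 34.2% and 13.4%, so that the days overlapped (28.0% ± 12.7 against 25.5% ± 17.3, SD, n = 3 each, exact permutation p = 1). The lowest shares were those of the libraries with the longest lists. With the 825 strongest peaks of each library the direction turned and the days no longer overlapped. Day 1 libraries then had 45.5%, 48.6% and 43.5% and day 3 libraries 39.6%, 36.4% and 27.8%, with means of 34.6% ± 6.09 on day 3 and 45.9% ± 2.60 on day 1 (SD, n = 3 each, exact permutation p = 0.1).

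**Figure D4:**
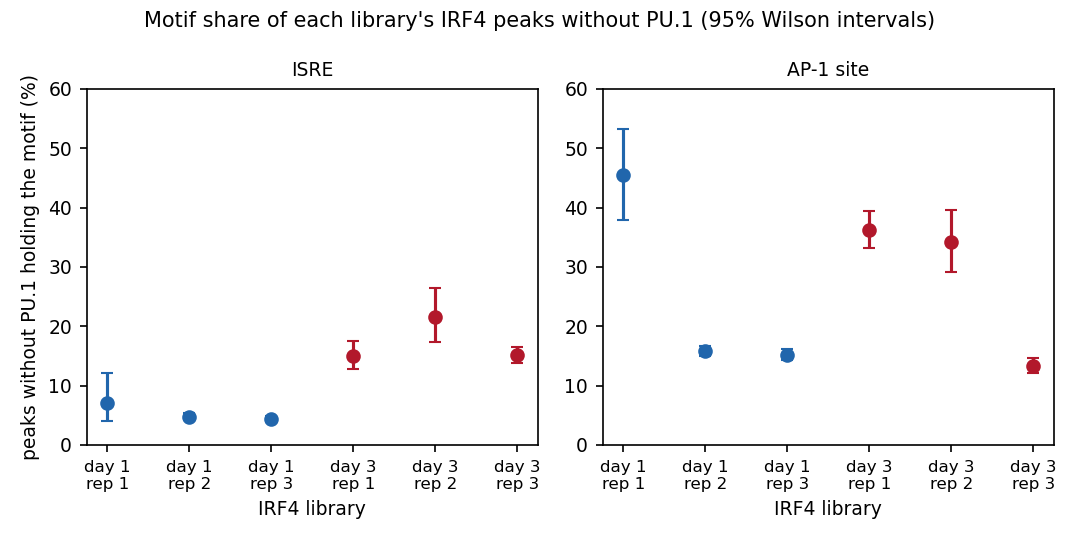
Percent of each IRF4 library's peaks without PU.1 that held an ISRE (left) or an AP-1 site (right), with 95% Wilson intervals, day 1 in blue and day 3 in red. The ISRE shares of 4.29% to 7.05% on day 1 lie below those of 15.02% to 21.6% on day 3, and the AP-1 shares overlap.

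Positions were annotated with protein-coding genes of GENCODE M1, on the same build. Introns held 128 regions, exons 14, of which 9 were in untranslated regions and 2 in coding exons, and 104 were intergenic. A start site lay within 1 kb of 26 regions (10.6%), between 1 and 20 kb from 107 and over 20 kb from 113, with a median of 17.3 kb. The promoter share did not pass a test against the other kinds of region, which had 10.9%, 6.11% and 8.64% (differences of -0.325 points, -4.56 to 4.66, of 4.46 points, -0.612 to 9.54, and of 1.93 points, -2.02 to 6.75, adjusted exact p = 1, 0.147 and 0.465). An ISRE was found in 10 of the 26 promoter regions (38.5%), at Ifi204, Mnda, Eif4enif1, Nub1, Ica1, Zbp1, Ptch1, Trim34a, Slc10a7 and Naif1.

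Genes near these regions were counted in 10 lists. A gene was counted when a region lay in it or within 20 kb, which says nothing of whether the gene responds. This held for 271 of 22380 protein-coding genes (1.21%). Of 40 interferon-stimulated genes 7 were counted (Zbp1, Ifi204, Mnda, Ifi203, Rsad2, Trim30a and Ifi44), from 6 regions. Mnda and Ifi203 were counted through the same region, a near-identical copy of the Ifi204 region, and Trim30a through a simple repeat. The count of interferon-stimulated genes was 4 without replicate 2 or without replicate 3 of IRF4 on day 3. It was 4 when judged by every single library and 3 in the stronger 50% of the lists. Among 20 plasma cell genes 2 were counted (Irf4 and Tnfrsf13b), among 20 costimulation and inhibitory receptor genes 2 (Ctla4 and Cd28), among 25 activation genes 1 (Nfkbia) and among 25 cytokine and receptor genes 1 (Cish). No gene was counted of the 20 B cell identity and germinal centre genes or the 22 adhesion and homing genes. Of the lists for other cells, myeloid markers had 3 of 19 (Itgax, Cebpe and Mrc1), T and NK cell markers 0 of 20 and neuron and liver genes 0 of 20. Ctla4 and Cd28 are best known from T cells, and whether other cells in the culture gave part of the signal was not tested.

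Of the interferon-stimulated genes, 3 had a region within about 0.1 kb of the start. Ifi204 and Mnda belong to a cluster of interferon-inducible genes of DNA-binding proteins. The Ifi204 region, 0.1 kb upstream of the start, had 48.5, 39.4 and 30.5 in replicates 1 to 3 of day 3. The Mnda region, 0.1 kb upstream of its start and inside an intron of Mndal, had 21.3, 28.1 and 33.9. Neither was called in any IRF4 library of day 1 or PU.1 library, and both hold the GAAATTGAAA word shown above, with the limit on near-identical copies given there.

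Zbp1 encodes a sensor of foreign nucleic acid. Its region, 0.1 kb upstream of the start, had 24.3, 18.1 and 26.6 on day 3, no call on day 1 for IRF4, and 77.5 in replicate 1 of PU.1 on day 3. The region of Ifi44, in an exon 1236 bp from its start, had 28.2 and 16.8 in replicates 2 and 3, with an ISRE and no other call. The region next to Rsad2, which encodes the antiviral protein viperin, lay in a coding exon of its neighbour Cmpk2, 159 bp from the start. It had 20.9 and 24.7 in replicates 2 and 3 of day 3, 30.2 in replicate 3 of IRF4 on day 1 and 27.2 in replicate 1 of PU.1 on day 3, and held 2 EICE and no ISRE. Trim30a was counted through the Trim30c repeat, which had 30.7 and 36.5 in replicates 2 and 3 of day 3 and 24.2 in replicate 3 of day 1. Reads at a simple repeat are placed with less certainty.

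Near plasma cell genes, the region 16.3 kb upstream of Irf4 itself was called in all 3 libraries of day 3, with 47.0, 26.5 and 37.8. It also had 48.4 in replicate 3 of day 1, so that this place was called in 1 of 3 libraries on day 1. The nearest position of the day 1 group list was 5856 bp away. Tnfrsf13b encodes TACI, a receptor for the survival factors BAFF and APRIL. The region 4.2 kb upstream of it had 30.4 and 21.3 in replicates 1 and 2 of day 3 and 33.6 in replicate 3 of day 1, and held an AP-1 site.

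Ctla4 and Cd28 are neighbours that encode an inhibitory and a costimulatory receptor for CD80 and CD86. The region in an intron of Ctla4, at chr1:60970127-60970559, had the highest values of the named regions, with 50.7, 43.8 and 78.5 in replicates 1 to 3, no call in the 7 other libraries and 2 AICE. The Cd28 region, in an annotated untranslated region 25.6 kb from the start, had 22.2 and 24.7 in replicates 1 and 2 and none of the 4 elements. The Nfkbia region lay 5.6 kb from the nearest start of that gene, which encodes an inhibitor of NF-kB. It had 21.2 and 32.3 in replicates 1 and 3 of day 3, 28.6 in replicate 3 of day 1, and PU.1 values of 15.7 and 33.1.

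Among the 17 regions called in all 3 IRF4 libraries of day 3 and in no IRF4 day 1 or PU.1 library, 6 held an ISRE and 4 an AICE. The 12 of them whose weakest library rank was highest were Ctla4, Oxr1, Ifi204, Impa2, Socs1, Acbd6, Mnda, Gnaz, Soat1, 2010111I01Rik, Plcg2 and Zbtb38. Of these, Oxr1 and Zbtb38 are cases near the rule, with a group-list PU.1 position 316 and 272 bp away. An intron of Oxr1, a gene of resistance to oxidative stress, had 49.4, 35.6 and 37.7. The region named for Socs1, a feedback inhibitor of cytokine signalling, lay 44.2 kb from that start in an intron of Clec16a and had 26.7, 28.8 and 42.0. An intron of Acbd6 had 28.2, 24.1 and 60.7. The region nearest to Plcg2, the phospholipase downstream of the B cell receptor, lay 67.5 kb from its start in an intron of 4933407C03Rik. It had 36.9, 19.0 and 24.9.

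Outside the naming rule, and chosen after its values were seen, is a region of the same set 25.9 kb upstream of Il10, the gene of a cytokine that plasma cells can make. It had 21.8, 18.2 and 28.6 in replicates 1 to 3 and held an AP-1 site.

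The remaining named promoter regions with an ISRE were each called in 2 of the 3 IRF4 libraries of day 3. The region in a coding exon of Eif4enif1, which encodes a transport protein of the translation factor eIF4E, had 25.9 and 39.5 in replicates 1 and 3. It is a case near the rule, with a day 1 IRF4 position 308 bp away and a PU.1 position 325 bp away. Nub1, which encodes an interferon-inducible regulator of NEDD8, had 26.5 and 30.8 in replicates 1 and 3, with the region in an intron 580 bp from the start. Ica1 had 19.8 and 40.05 in replicates 1 and 3 of day 3 and 34.9 in replicate 3 of day 1.

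The 3 regions near myeloid markers were each called in 2 of the 3 IRF4 libraries of day 3. The Mrc1 intron had 19.0 and 28.1 in replicates 2 and 3 of day 3 and 67.6 in replicate 2 of PU.1 on day 3, with a group-list PU.1 position 427 bp away. The region upstream of Cebpe, inside Slc7a8, had 21.7 and 19.2 in replicates 1 and 3 of day 3 and 58.7 in replicate 3 of day 1. The region counted for Itgax lay in an intron of the neighbouring Itgad, with 22.2 and 20.7. Cish, a cytokine-induced inhibitor of the family of Socs1, had a region 13.8 kb from the nearest start with 19.0 and 24.9.

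**Figure D5:**
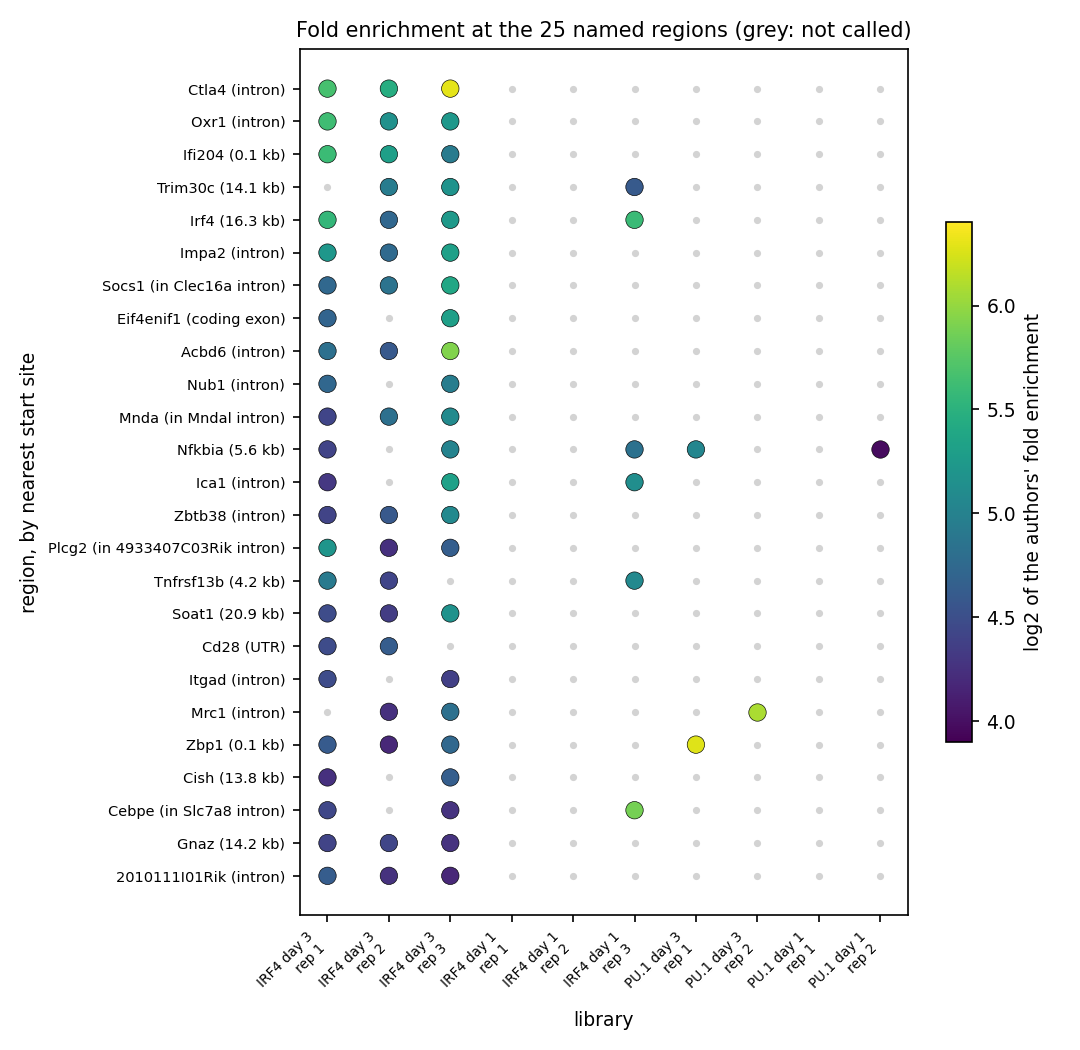
Fold enrichment over input, on a log2 colour scale, of the 25 regions named by rule, in rows, in each of the 10 libraries, in columns. Coloured points are calls and grey points are libraries without a call. The Ctla4 row has calls of 50.7, 43.8 and 78.5 on day 3 alone, and the Irf4 row has a further call of 48.4 in replicate 3 of day 1.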

How the data were processed

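IRF4 and PU.1 ChIP-seq peak lists were used. Per the series' design text and the submitters' processing notes, reads were mapped to mm9 and enrichment over input came from QuEST. The sources used here do not name the aligner, the QuEST version or its thresholds. A line of a deposited list has the interval, the peak position and a fold enrichment computed by the authors as a linear ratio over input, which was used to describe and rank peaks within a library. The lists hold no read counts, so depth is unknown. Whether positions count from 0 or 1 is not stated, and they were read as counting from 1.

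Positions less than 200 bp apart counted as shared, with repeated lines counted once (7 and 5 in the PU.1 lists of day 1 and day 3). Replicate numbers follow the sample descriptions; the numbers in some titles differ. Motifs were searched on both strands of 201 bases of the reference; no peak ended beyond its chromosome there. The search was tested on simulated data. Shares of regions were compared by Fisher's exact tests, with Newcombe intervals for differences. Wilson intervals and these tests cover counting error. Python 3.11.15, scipy 1.17.1, pandas 2.3.3, numpy 2.4.6 and matplotlib 3.10.9 were used.

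The regions, the 10 gene lists (231 entries, all matched) and the tests were chosen with earlier results of these data known. Named were the first 12 regions called in all 3 IRF4 day 3 libraries and no other, by their lowest rank, up to 3 regions for each gene list, and up to 6 promoter regions with an ISRE, the last 2 by the mean rank over the IRF4 day 3 libraries that called a region, which differ between regions. No region met a further part of the rule, an AICE together with an ISRE. A region is named by the nearest protein-coding start. Regions mentioned for a high value in another library were chosen after the values were seen. So were Ifi44, Cmpk2, Il10, Pik3cg, Pik3r5 and the regions near Vmn1r2 and Gm7120. Alternatives were sharing within 100 or 500 bp, judging by every single library, the stronger 50% of lists, other windows and distances, and leaving out each library. Input enters no comparison.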

Additional observations from a re-analysis of the deposited data

How the results depend on the processing

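The 3 ISRE differences kept their direction and their side of the 0.05 threshold under every alternative run. Leaving out single libraries gave 10.9 to 18.5 points against day 3-only regions with PU.1, 14.1 to 21.1 against regions of both days without PU.1 and 18.6 to 25.6 against day 1-only regions without PU.1. For the shares of regions no paired analysis was possible because the group lists hold no counts per library. For the shares of single libraries, the numbers being shared in the labels without a stated pairing, the replicate block gave ISRE differences of 7.97, 16.8 and 10.8 points for numbers 1 to 3 (mean 11.9, exact sign-flip p = 0.25, the smallest that 3 pairs can give) and a mean AP-1 difference of 2.45 points (exact p = 1). The number of regions depended on the lists: 79 when judged by every single library (where, by construction, 0 are called in an IRF4 day 1 and 0 in a PU.1 library), 71 in the stronger 50% (48 and 19 called), and 76 to 402 without single libraries. Without IRF4 day 3 replicate 1 it was 86, without replicate 3 it was 76, without day 1 replicate 2 it was 402 and without day 1 replicate 3 it was 399. Regions called in an IRF4 day 1 library then ran from 41 to 228 and those called in a PU.1 library from 16 to 113. List genes fell from 16 to 8 when judged by every single library, to 6 in the stronger 50% and to 10 within 5 kb, and ran from 8 to 26 without single libraries (26 without day 1 replicate 2). Interferon-stimulated genes ran from 4 to 8 in the same runs, and numbered 4 when judged by every single library and 3 in the stronger 50%. The AICE difference from regions of both days without PU.1 lost its call at 500 bp (-6.17 points, adjusted exact p = 0.0790), judged by every single library (-8.59, 0.124), in the stronger 50% (-6.07, 0.466) and with a 50 bp window (-4.88, 0.122), and ran from -8.36 to -4.15 without single libraries. Its call was lost without any of IRF4 day 3 replicates 1, 2 and 3, IRF4 day 1 replicates 2 and 3 and PU.1 day 1 replicate 1. Against day 1-only regions the AICE difference turned to 0.496 at 500 bp, 3.80 in the stronger 50% and 1.38 with a 50 bp window, with -7.57 to 1.20 without single libraries. The AP-1 differences in the stronger 50% were -15.5 and -6.12, and -15.4 to -6.92 against day 1-only regions without single libraries. EICE turned to -0.264 against regions of both days at 100 bp and ran from -0.275 to 2.22 against day 1-only regions. The promoter difference turned to -0.0293 and -0.648 when judged by every single library, and ran from -2.56 to 5.13 against day 3-only regions with PU.1. The AP-1 difference of single libraries turned to -11.3 for the 825 strongest peaks and ran from -2.68 to 12.5. The causes were not tested.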

Other observations

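Other elements were counted in the same windows without a test. The octamer ATGCAAAT, bound by Oct factors, was found in 12 of the 246 regions (4.88%) and in 0.813% of windows 2 kb away. Over all 1964 lines of the day 3 list the octamer share was 2.70%. It was 1.63% in day 3-only regions with PU.1, 1.75% in regions of both days without PU.1 and 1.21% in day 1-only regions without PU.1. The Nfkbia, Plcg2 and Gnaz regions were among the 12. A run of 3 GAAA cores at the spacing of the ISRE was found in 11 regions (4.47%) and in 1.22% of all lines of the day 3 list. It was found in 8 of 615 day 3-only regions with PU.1 (1.30%), 0 of 229 regions of both days without PU.1 and 3 of 741 day 1-only regions without PU.1. The PU.1 site GAGGAAGT was found in 5 regions (2.03%), against 1.31% of regions of both days without PU.1, 1.21% of day 1-only regions without PU.1 and 1.42% of windows 2 kb away. A control pattern, the EICE letters in reverse order (AAAGNNAAGG), was found in 8 regions (3.25%) and in 1.63% of windows 2 kb away. The share of this control was 3.25% in day 3-only regions with PU.1. In regions of both days and of day 1 only without PU.1 it was 0.873% and 1.21%.

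A region with no call outside day 3 was an intergenic place on chromosome 4, 81.7 kb from the start of Vmn1r2 and 17.5 kb from the first sequenced base of that chromosome in mm9. Its fold enrichment was 47.3 and 76.4 in replicates 1 and 3 of day 3. A region near Gm7120 lay 3.23 kb from the last sequenced base of chromosome 13, with 30.6 and 24.0 in replicates 1 and 2. Whether reads map there uniquely was not tested.

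The regions near Pik3cg and Pik3r5, which encode the catalytic and a regulatory subunit of the same phosphoinositide kinase, lay in introns, 3.8 and 20.8 kb from the starts. In replicates 1 and 3 of day 3 the fold enrichments were 39.1 and 55.2 for Pik3cg and 52.4 and 35.7 for Pik3r5. Each was called in 2 IRF4 libraries of day 3 and in 1 of day 1, and the Pik3cg region also in 2 PU.1 libraries.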
